A study of Drosophila melanogaster with 9 samples.

Results

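The 10 genes described here encode yolk proteins, their receptor, a blood lipoprotein, and enzymes and droplet proteins of lipid storage. They were chosen by symbol from the 16727 gene symbols of the count tables: Yp1, Yp2, Yp3, yl, Rfabg (now apolpp), Cyp4g1, CG3523 (now FASN1), bmm, Lsd-1 and Lsd-2. Members, and the gene lists set beside them, were chosen with earlier results of these data known, so counts of calls among them are descriptions. All 10 were found, and all 10 passed the filter on low counts that left 9082 genes tested. The filter asked for 0.897 CPM (counts per 1e6 counts of a library) in 3 libraries. yl reached this in 0 of the 3 primary libraries, at a mean of 0.315 CPM there, and Yp2 in 2 of 3, so these 2 genes passed through the transplanted tumours in which they were higher, and their calls against primary cells are not independent of the filter.

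RNA-seq of polyadenylated transcripts was done on brain tumours of Drosophila melanogaster at 3 stages, with 3 libraries each. All libraries shared the genotype actinF/O>DM, in which flip-out clones under the actin promoter overexpress UAS-HA-dpn and UAS-HA-mγ, both HES genes that keep neural stem cells (neuroblasts) undifferentiated. Primary libraries (replicates 1, 2 and 4) held GFP-positive cells sorted from 150 dissociated brains of 3rd instar larvae, 4 days after clone induction. T0 libraries (replicates 2, 3 and 4) held GFP-bearing masses dissected from 25 adult w1118 hosts, 8 to 10 days after the first transplantation, and T3 libraries (replicates 1, 2 and 4) held the same from 25 hosts after the transplantation numbered 4. The masses were not sorted, so they can hold host cells, and the sex of the hosts is not given in the sources used here. Sorting, dissociation, host and age of growth all differ between primary cells and masses and cannot be told apart.

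Libraries held 7932772 to 14093032 counts. A marker list held 5 neuroblast and tumour genes (dpn, E(spl)mgamma-HLH, mira, ase, wor). They summed to 3544 to 3742 CPM in primary, 2931 to 3715 CPM in T0 and 3174 to 3320 CPM in T3 libraries. RNA of these genes was thus abundant in all 9 libraries, and the sum was led by mira. The clones overexpress dpn and E(spl)mgamma-HLH, so counts of these genes can include transgene RNA, which was not told apart here. Within the list mira rose and the other 4 genes, dpn and E(spl)mgamma-HLH among them, fell in T0, and mira rose and 3 fell in T3. Of 4 neuron and glia genes 4 fell in T0 and 3 in T3. Among all genes tested, 22.4% rose and 23.2% fell in T0, with 23.1% and 24.1% in T3. Replicates are separate pools of animals, and p-values measure the spread between these pools.

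Yolk proteins are made in flies by the fat body of adult females and by ovarian follicle cells, and are taken up by oocytes through the receptor Yolkless (yl). Lipids travel in the blood on lipophorin, whose protein part is cut from the Rfabg product made in the fat body, while Cyp4g1 is the cytochrome P450 with which oenocytes make cuticular hydrocarbons. Fatty acids made by fatty acid synthase are stored as triglyceride in droplets that the perilipins Lsd-1 and Lsd-2 coat and that the lipase Brummer (bmm) breaks down.

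In T0 masses, 7 of the 10 genes rose against primary cells and 0 fell, where 22.4% of all genes tested rose and 23.2% fell. The 7 were the 3 yolk protein genes, yl, Rfabg, Cyp4g1 and bmm. In T3 masses 5 rose, the 3 yolk protein genes, Cyp4g1 and bmm, and 1 fell, Lsd-2, where 23.1% of all genes rose and 24.1% fell. A gene was called when edgeR's quasi-likelihood test gave it an adjusted p (Benjamini-Hochberg, over all 9082 genes) under 0.05. Without T0 replicate 2, 7 were called in T0, with CG3523 in place of yl, where 3692 of all 9357 genes tested were called. Without T3 replicate 2, 3 were called in T3 (Cyp4g1, bmm and Lsd-2), where 3725 of all 9411 genes tested were called. Whether libraries overlapped is described for each gene below. The share of all genes that did not overlap is given for T3 against T0 only, so non-overlap with primary has no background to be set against. These libraries are bulk samples, in which fewer cells of a type and less RNA per cell cannot be told apart.

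**Figure D1:**
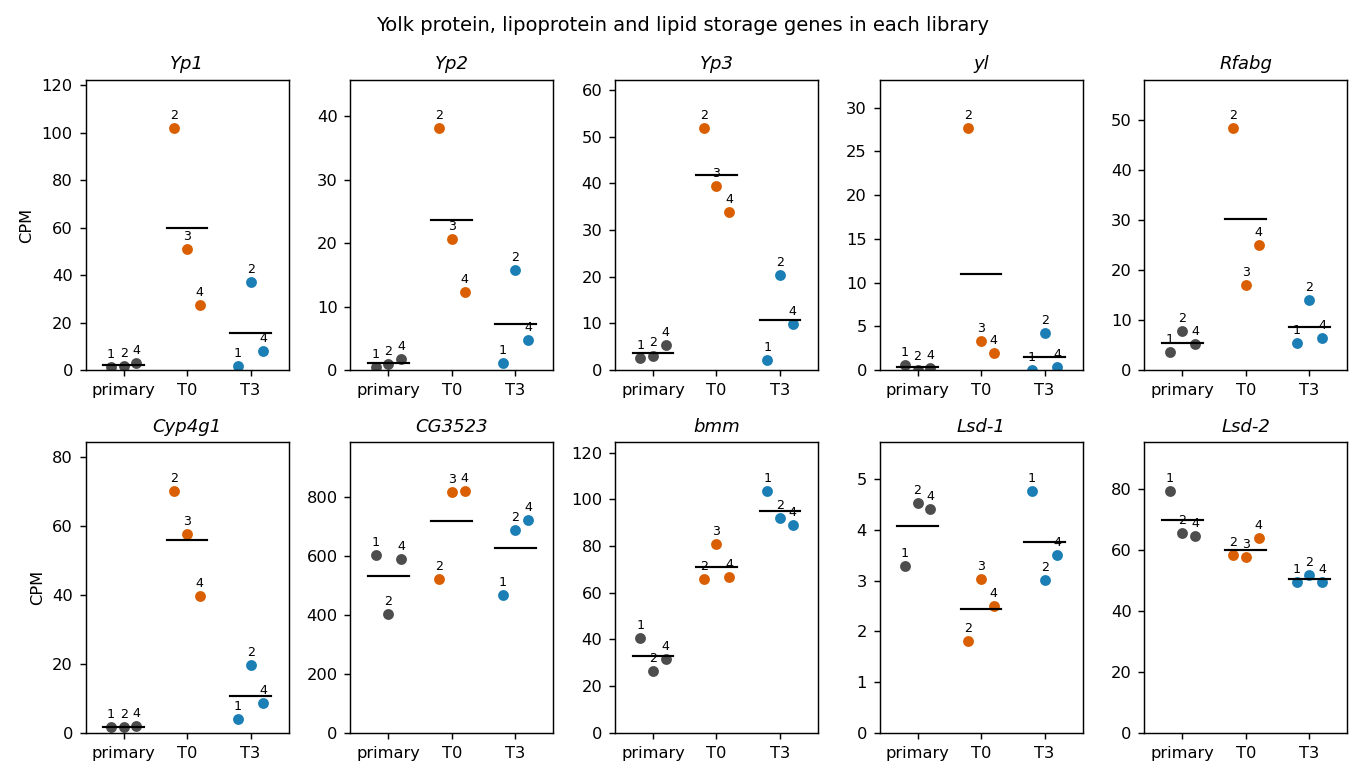
CPM of each of the 10 genes (y axis, each panel with its own scale from 0) in the 3 primary, 3 T0 and 3 T3 libraries. Points are libraries with their replicate number and black lines are group means. For Yp1, Yp2, Yp3, yl, Rfabg and Cyp4g1, T0 replicate 2 and T3 replicate 2 were the highest of their groups.

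Yp1 and Yp2 lie next to each other on chromosome X with 1174 bases between them (Yp1 at 10053811 to 10055498 on the plus strand, Yp2 at 10050951 to 10052636 on the minus strand, dm6). Yp1 had 1.31, 1.61 and 3.10 CPM in primary replicates 1, 2 and 4, 102, 50.9 and 27.3 CPM in T0 replicates 2, 3 and 4, and 1.61, 37.4 and 8.21 CPM in T3 replicates 1, 2 and 4. Every T0 library was above every primary one, while T3 ran from the primary range, in replicate 1, up into the T0 range, in replicate 2. Yp1 averaged 60.1 ± 38.2 CPM in T0 and 2.01 ± 0.954 CPM in primary (SD, n = 3 each), a log2 fold change of 4.92 ± 0.92 (SE, edgeR adjusted p = 0.00108). Without T0 replicate 2 the log2 fold change was 4.31 (edgeR adjusted p = 0.00285). In T3 it averaged 15.7 ± 19.0 CPM, a log2 fold change of 2.94 ± 0.91 against primary (edgeR adjusted p = 0.0189).

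Yp2 followed the same order of libraries at a lower level, with 0.438, 0.968 and 1.78 CPM in primary replicates 1, 2 and 4, 38.1, 20.7 and 12.3 CPM in T0 replicates 2, 3 and 4, and 1.17, 15.7 and 4.70 CPM in T3 replicates 1, 2 and 4. T0 lay fully above primary, and T3 overlapped both. Its log2 fold change was 4.50 ± 0.83 in T0 (edgeR adjusted p = 9.50e-04) and 2.74 ± 0.82 in T3 (edgeR adjusted p = 0.0163), each against primary.

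Yp3 (X, 13759546 to 13761547) lies apart from the other two on the same chromosome. It had 2.70, 3.15 and 5.35 CPM in primary replicates 1, 2 and 4, 51.8, 39.4 and 33.8 CPM in T0 replicates 2, 3 and 4, and 2.13, 20.4 and 9.92 CPM in T3 replicates 1, 2 and 4. T0 was again above primary in every library, and all T3 libraries were below all T0 libraries. The log2 fold change was 3.49 ± 0.58 in T0 (edgeR adjusted p = 5.05e-04) and 1.51 ± 0.58 in T3 (edgeR adjusted p = 0.0488), each against primary.

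The T3 calls of the yolk genes depended on single libraries. Without T3 replicate 2, the log2 fold change against primary was 1.30 for Yp1 (edgeR adjusted p = 0.160), 1.49 for Yp2 (0.107) and 0.69 for Yp3 (0.298). Yp1 was also not called without primary replicate 1 (2.73, edgeR adjusted p = 0.0741) or primary replicate 2 (2.82, 0.0664), at log2 fold changes near that of the full fit. Yp2 was not called without the same libraries (2.38, edgeR adjusted p = 0.0686, and 2.70, 0.0551). Yp3 was not called without any 1 of primary replicates 1, 2 or 4, T0 replicates 3 or 4, or T3 replicate 4 (log2 fold changes of 1.34 to 1.84, edgeR adjusted p = 0.0511 to 0.144). In limma-voom the yolk genes were not called in T3 against primary (adjusted p = 0.164 to 0.319), and Yp3 was not called in DESeq2 either (adjusted p = 0.0797).

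The shares of the yolk protein genes in their summed counts differed between libraries as well as their levels. In primary libraries Yp3 gave 52.3% to 60.7% of the yolk protein counts and Yp1 gave 28.2% to 30.3%. In T0 replicate 2, Yp1 gave 53.2% (95% exact interval 50.7% to 55.6%) and Yp3 27.0% (24.9% to 29.2%), and in T3 replicate 2, Yp1 gave 50.9% (46.7% to 55.0%) and Yp3 27.7% (24.1% to 31.6%). T0 replicate 3 lay between, with 45.9% from Yp1 and 35.5% from Yp3. In T0 replicate 4 and T3 replicates 1 and 4, Yp3 was the larger share, at 46.1%, 43.3% and 43.4%, but in T3 replicate 1, with 67 yolk counts, its interval (31.2% to 56.0%) overlapped that of Yp1 (21.8% to 45.4%), as it did in T3 replicate 4 (37.4% to 49.6% and 30.2% to 42.0%). Yp2 stayed between 9.84% and 23.9%. These intervals are Clopper-Pearson and cover counting error only.

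**Figure D2:**
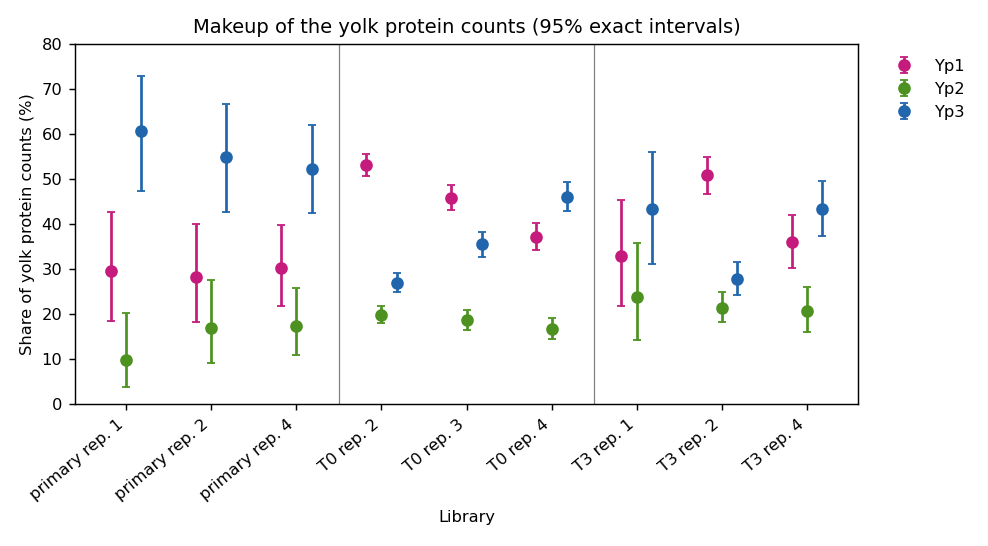
Share of the summed Yp1, Yp2 and Yp3 counts that each gene gave (y axis, %) in each of the 9 libraries (x axis), with 95% exact intervals as bars. Yp3 was the largest share in the primary libraries and Yp1 in T0 replicates 2 and 3 and T3 replicate 2.

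An annotated antisense RNA gene, CR45601, covers 875 of the 1611 exonic bases of Yp1 on the other strand. CR45601 averaged 40.2 ± 23.9 CPM in T0 and 0.909 ± 0.457 CPM in primary (SD, n = 3 each), a log2 fold change of 5.49 ± 1.01 (edgeR adjusted p = 9.71e-04). It averaged 9.50 ± 12.0 CPM in T3. The strand setting of the counting is not given in the sources used here, so reads of Yp1 and CR45601 cannot be told apart where they overlap.

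yl encodes the oocyte receptor that takes up yolk proteins (X, 14193214 to 14199958). It had 0.584, 0.0807 and 0.282 CPM in primary replicates 1, 2 and 4, 27.7, 3.39 and 1.91 CPM in T0 replicates 2, 3 and 4, and 4.28 and 0.342 CPM in T3 replicates 2 and 4. T3 replicate 1 had 0 counts, which allows up to 0.220 CPM at a floor of 3 counts. T0 replicate 2 stood far above all other libraries, and T3 overlapped both other groups. The log2 fold change in T0 against primary was 5.03 ± 1.40 (edgeR adjusted p = 0.0114). It was 3.00 without T0 replicate 2 (edgeR adjusted p = 0.0729), 4.58 without primary replicate 2 (0.0507), 5.87 without primary replicate 1 (0.0301), and it was not called in limma-voom (adjusted p = 0.0616). In T3 against primary it was 2.07 ± 1.48 and was not called (edgeR adjusted p = 0.269), and it was -0.95 without T3 replicate 2.

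The germline gene osk, whose RNA is carried in oocytes, was singled out after its values were seen. It had 2, 3 and 4 counts in primary replicates 1, 2 and 4, 95, 8 and 9 counts in T0 replicates 2, 3 and 4, and 3, 29 and 2 counts in T3 replicates 1, 2 and 4. As for yl, T0 replicate 2 and T3 replicate 2 were the highest of their groups, but among primary libraries osk was lowest in replicate 1, where yl was highest. It was not among the 8 genes of a 10-gene germline list that were tested. Of these, 1 rose in T0 (AGO3) and 1 fell (bam), and 3 rose and 2 fell in T3. The shares of all genes that rose and fell were 22.4% and 23.2% in T0, and 23.1% and 24.1% in T3. vas, which marks germline cells, averaged 2.14 ± 2.23 CPM in T0 and 2.84 ± 0.896 CPM in primary (SD, n = 3 each). zpg, a germline gap junction gene, averaged 1.32 ± 1.62 CPM in T0 and 1.77 ± 0.720 CPM in primary, and neither was called. Both were highest of all libraries in T0 replicate 2, at 4.65 CPM (vas) and 3.17 CPM (zpg). Within T3, zpg was highest in replicate 2 (1.64 CPM) and vas in replicate 1 (2.71 CPM). Summed over the list, of which 0 genes were at 0 counts in a whole group, libraries ranged from 47.8 to 60.3 CPM in primary, from 32.2 to 114 CPM in T0 and from 53.8 to 95.5 CPM in T3. The top of T0 was replicate 2, but the top of T3 was replicate 1, the library with 0 yl counts, against 75.2 CPM in T3 replicate 2. The part of germline or ovary RNA in the yl values was not tested.

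Rfabg (chromosome 4, 1060969 to 1077273) encodes apolipophorin, the protein of the main lipoprotein of fly blood. It had 3.58, 7.75 and 5.16 CPM in primary replicates 1, 2 and 4, 48.3, 16.9 and 25.0 CPM in T0 replicates 2, 3 and 4, and 5.50, 14.0 and 6.50 CPM in T3 replicates 1, 2 and 4. T0 lay above both other groups in every library, and T3 overlapped primary. The log2 fold change was 2.45 ± 0.45 in T0 (edgeR adjusted p = 9.12e-04) and 0.63 ± 0.45 in T3, not called (edgeR adjusted p = 0.265), each against primary. Of its 11766 exonic bases, 676 lie over an annotated transposable element (HB) and 96 over Zyx, both on the other strand. Zyx averaged 151 ± 22.7 CPM in T0 and 140 ± 5.40 CPM in primary and was not called.

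Cyp4g1 (X, 467057 to 469335) had 1.68, 1.78 and 2.06 CPM in primary replicates 1, 2 and 4, 70.3, 57.8 and 39.6 CPM in T0 replicates 2, 3 and 4, and 4.03, 19.6 and 8.64 CPM in T3 replicates 1, 2 and 4. The 3 groups did not overlap at all, with T0 highest, T3 between and primary lowest. The log2 fold change was 4.92 ± 0.50 in T0 (edgeR adjusted p = 1.35e-05) and 2.51 ± 0.49 in T3 (edgeR adjusted p = 0.00141), each against primary. Without T3 replicate 2 the T3 value was 1.78 (edgeR adjusted p = 0.00254). Of all genes, 22.4% rose and 23.2% fell in T0, with 23.1% and 24.1% in T3. Of 10 other oenocyte genes, 7 were tested, and 3 rose and 2 fell in T0, with 4 and 2 in T3. The fatty acid synthase genes v(2)k05816 (now FASN2) and CG17374 (now FASN3) were among those that rose, with log2 fold changes of 2.66 ± 0.32 and 2.37 ± 0.50 in T0. Of the primary libraries, v(2)k05816 reached the filter's CPM in 2 of 3. Both genes are counted again in the fatty acid synthesis list below. The elongase gene eloF had 0 counts in all primary libraries and 19, 7 and 11 counts in T0 replicates 2, 3 and 4. In T3 replicates 1, 2 and 4 it had 0, 5 and 1 counts. The reductase gene CG18031 (now FarO) had 0 or 1 counts in each of the transplanted libraries, and Desat2, a desaturase gene, fell (-2.24 ± 0.52 in T0). The summed list was led by CG1444 (now spidey) and ranged from 148 to 157 CPM in primary, from 131 to 136 CPM in T0 and from 118 to 122 CPM in T3. The part of oenocyte RNA in the Cyp4g1 values was not tested.

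Genes of other host tissues were counted beside these members. Over all genes, 22.4% were called higher and 23.2% lower in T0, and 23.1% higher and 24.1% lower in T3. Of 15 further fat body genes 4 were tested, and the 3 of these that were called higher in T0 and T3 (TotA, TotM and fon) did not reach the filter's CPM in all primary libraries, so they entered the test through the transplanted ones. The stress peptide gene TotA was the highest of them, at 13.0 ± 1.96 CPM in T0 and 0.907 ± 0.441 CPM in primary (SD, n = 3 each). Their sum ranged from 2.26 to 3.39 CPM in primary, from 19.8 to 41.3 CPM in T0 and from 8.73 to 15.5 CPM in T3. Genes without a count numbered 6 in primary, 4 in T0 (Lsp1alpha, Fbp1, Fbp2 and Pepck) and 2 in T3 (Lsp1alpha and Pepck), and the larval storage protein gene Lsp2 had at most 4 counts in any library. The highest T0 sum was in replicate 2, as for the yolk genes. In T3 replicate 2 the sum was 15.5 CPM and in T3 replicate 4 it was 14.5 CPM, where the yolk protein genes summed to 73.5 and 22.8 CPM. Between T3 replicates 2 and 4, TotA had 8.43 and 9.32 CPM and TotM 2.01 and 2.48 CPM. The third called gene, fon, went the other way, with 3.40 and 1.54 CPM. The part of fat body RNA in the yolk protein and Rfabg values was not tested.

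The list of 13 follicle cell and eggshell genes summed to 4.44 to 5.18 CPM in primary, 2.93 to 9.75 CPM in T0 and 3.08 to 8.14 CPM in T3, with 6, 3 and 5 genes at 0 counts in these groups. Of 3 tested, 1 was called higher in T0 and in T3, the chorion gene Cp15, and 0 fell. Among all genes, 22.4% were called higher in T0 and 23.1% in T3, and 23.2% and 24.1% lower. Cp15 passed the filter through transplanted libraries alone, with 0, 4 and 2 counts in primary replicates 1, 2 and 4, 47, 6 and 38 counts in T0 replicates 2, 3 and 4, and 65, 13 and 22 counts in T3 replicates 1, 2 and 4.

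Hemocyte, gut and muscle genes were counted in the same libraries. The 11 hemocyte genes summed to 52.3 to 61.4 CPM in primary, 125 to 378 CPM in T0 and 119 to 145 CPM in T3. Of 9 tested, 6 were called higher and 0 lower in T0, and 6 higher and 1 lower in T3. Of those higher, NimC1 reached the filter's CPM in 1 of 3 primary libraries and Sr-CI and srp in 0 of 3, so they entered the test through the transplanted libraries. Of all genes, 22.4% were called higher and 23.2% lower in T0, and 23.1% higher and 24.1% lower in T3. He, with 0 counts in primary, was the 1 gene of the list without a count in a group. The 6 gut genes summed to 0 to 0.565 CPM in primary, 2.87 to 48.5 CPM in T0 and 0.440 to 3.27 CPM in T3, with the top of T0 in replicate 2. Of the gut genes 1 was tested, the protease gene Jon65Aiii, which passed the filter through transplanted libraries alone, with 2, 0 and 0 counts in primary replicates 1, 2 and 4 and 73, 15 and 9 counts in T0 replicates 2, 3 and 4. Of the list, 3 (alphaTry, betaTry and Amy-p) were at 0 counts in primary. The 6 muscle genes stayed at or under 3.29 CPM in sum in all 9 libraries, with up and wupA at 0 counts in primary, and the 1 gene tested, Mhc, was not called.

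**Figure D3:**
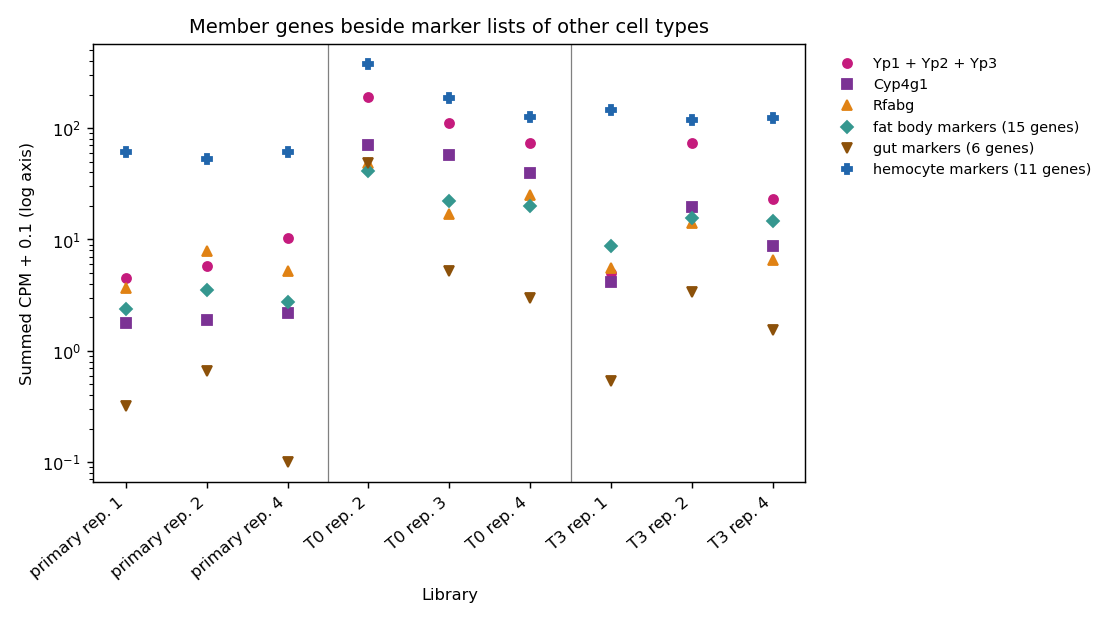
Summed CPM plus 0.1 on a log axis (y) in the 9 libraries (x) for the 3 yolk protein genes, Cyp4g1 and Rfabg, and for marker lists of fat body, gut and hemocytes. T0 replicate 2 was highest for all 6 series, while T3 replicate 2 was the highest T3 library for all but the hemocyte list.

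bmm (3L, 14776496 to 14786412) encodes the fly homolog of adipose triglyceride lipase and moved differently from the yolk genes. It had 40.5, 26.6 and 31.6 CPM in primary replicates 1, 2 and 4, 65.8, 80.7 and 66.8 CPM in T0 replicates 2, 3 and 4, and 104, 92.0 and 89.1 CPM in T3 replicates 1, 2 and 4. The groups did not overlap, and T3, not T0, was the highest. The log2 fold change was 1.11 ± 0.16 in T0 (edgeR adjusted p = 2.01e-04) and 1.53 ± 0.16 in T3 (edgeR adjusted p = 1.75e-05), each against primary. It kept both calls without any 1 of the 9 libraries.

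CG3523 (2L, 3056598 to 3068177), which encodes fatty acid synthase, had the highest group mean of the 10 genes per length at each stage. It had 604, 402 and 588 CPM in primary replicates 1, 2 and 4, 522, 817 and 820 CPM in T0 replicates 2, 3 and 4, and 467, 688 and 722 CPM in T3 replicates 1, 2 and 4. All groups overlapped. Its log2 fold change was 0.44 ± 0.23 in T0 (edgeR adjusted p = 0.143) and 0.24 ± 0.23 in T3 (edgeR adjusted p = 0.426), neither called. Without T0 replicate 2, its lowest T0 library, the T0 value was 0.63 (edgeR adjusted p = 0.0367).

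Lsd-2 (X, 15069127 to 15076220) and Lsd-1 (3R, 23763857 to 23766662) encode the perilipins of the droplet surface. Lsd-2 had 79.4, 65.6 and 64.6 CPM in primary replicates 1, 2 and 4, 58.3, 57.8 and 64.1 CPM in T0 replicates 2, 3 and 4, and 49.6, 52.0 and 49.5 CPM in T3 replicates 1, 2 and 4. Each group lay below the one before it without overlap. Its log2 fold change was -0.22 ± 0.12 in T0, not called (edgeR adjusted p = 0.167), and -0.47 ± 0.12 in T3 (edgeR adjusted p = 0.00788), each against primary.

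Lsd-1 was less abundant, with 3.29, 4.52 and 4.41 CPM in primary replicates 1, 2 and 4, 1.81, 3.02 and 2.50 CPM in T0 replicates 2, 3 and 4, and 4.77, 3.02 and 3.51 CPM in T3 replicates 1, 2 and 4. T0 lay below primary and T3 overlapped both. Neither change was called: the log2 fold change was -0.72 ± 0.34 in T0 (edgeR adjusted p = 0.106) and -0.10 ± 0.34 in T3 (edgeR adjusted p = 0.825). Lsd-1 shares 144 exonic bases with CG10214 on the other strand, which averaged 19.0 ± 2.37 CPM in T0 and 26.9 ± 5.21 CPM in primary and fell in T0 (log2 fold change -0.50 ± 0.19, edgeR adjusted p = 0.0479). The strand limit stated for Yp1 holds here too.

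**Figure D4:**
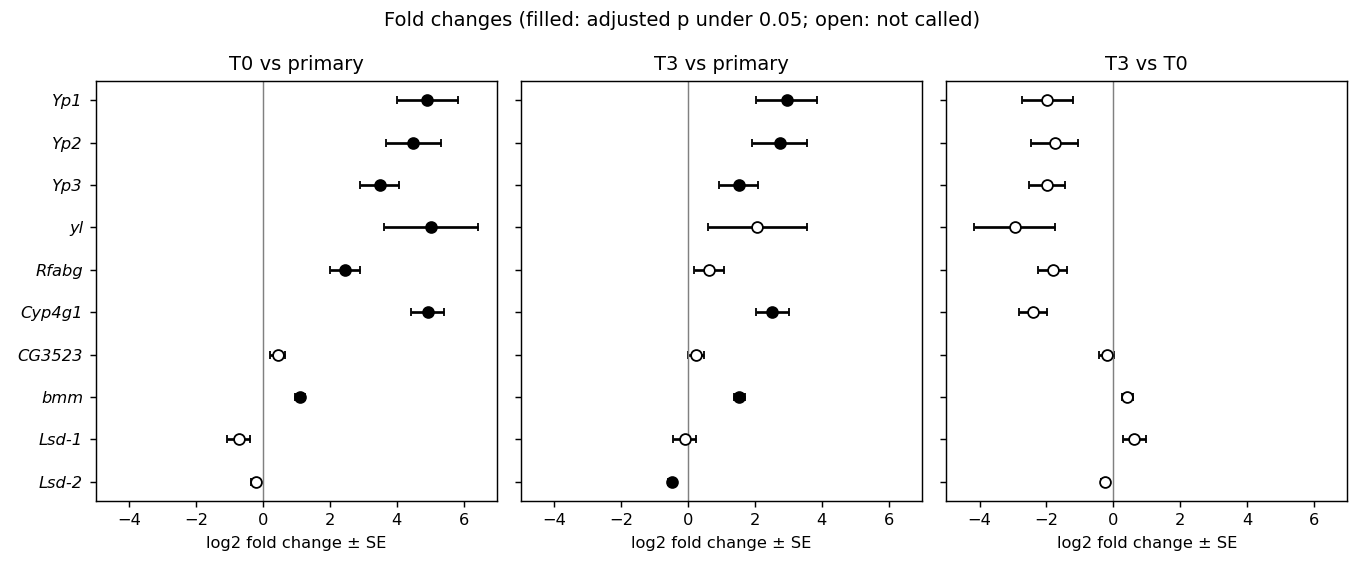
Log2 fold change with its SE (x axis) of the 10 genes (y axis) in T0 against primary, T3 against primary and T3 against T0, from the edgeR fit over 9 libraries. Filled points passed an adjusted p of 0.05. The 3 yolk genes, yl, Rfabg and Cyp4g1 lie right of 0 against primary and left of 0 in T3 against T0, and the remaining 4 genes lie between -0.72 and 1.53.

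Across genes, levels were compared as CPM per kilobase of exon. In primary cells the storage genes were the most abundant, with CG3523 at 60.8 ± 12.9, Lsd-2 at 15.2 ± 1.81 and bmm at 13.5 ± 2.89 CPM per kb (SD, n = 3), and the libraries of Lsd-2 and bmm overlapped. Lsd-1 (2.08) and Yp3 (2.00) came next and overlapped, as did each further neighbour down to Rfabg (0.467 CPM per kb), with yl lowest and apart (0.0497). In T0 the order was CG3523 (82.3), Yp1 (37.3), bmm (29.2), Cyp4g1 (24.5), Yp3 (22.3), Yp2 (14.6) and Lsd-2 (13.1 CPM per kb), and each of these overlapped its neighbour. Rfabg (2.56), yl (1.73) and Lsd-1 (1.25 CPM per kb) followed, below Lsd-2 in every library and overlapping each other. In T3, CG3523 (71.6) and bmm (38.9 CPM per kb) stood apart from each other and from the rest. Lsd-2 (11.0), Yp1 (9.76), Yp3 (5.79), Cyp4g1 (4.72), Yp2 (4.45) and Lsd-1 (1.92 CPM per kb) each overlapped the next, and Rfabg (0.736) and yl (0.242 CPM per kb) were lowest.

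The comparison of T3 with T0 asks whether repeated transplantation changed these genes. By edgeR, 0 of the 10 genes and 0 of all 9082 genes (0%) were called. At an unadjusted p under 0.05, 6 of the 10 genes were lower in T3 (5.25% of all genes) and 1 was higher (2.96%), in all 746 genes or 8.21%. The 6 were the 3 yolk protein genes, yl, Rfabg and Cyp4g1, and the 1 was bmm. Libraries did not overlap for 4 lower genes (Cyp4g1, Rfabg, Yp3 and Lsd-2, where 7.80% of all genes lay fully lower) and for 1 higher gene, bmm (7.33%). DESeq2 called 13 genes, of which 2 were Rfabg and Cyp4g1, and limma-voom called 0.

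Cyp4g1 had the clearest difference, with 10.8 ± 8.01 CPM in T3 and 55.9 ± 15.4 CPM in T0 (SD, n = 3 each). Its log2 fold change was -2.41 ± 0.42 (edgeR adjusted p = 0.330), and without T3 replicate 2 it was -3.14 and was called (edgeR adjusted p = 0.00376). Rfabg averaged 8.65 ± 4.63 CPM in T3 and 30.1 ± 16.3 CPM in T0 (-1.82 ± 0.44). The 3 yolk protein genes had log2 fold changes of -1.98 ± 0.77 (Yp1), -1.76 ± 0.70 (Yp2) and -1.98 ± 0.54 (Yp3), that of yl was -2.95 ± 1.22, and bmm stood at 0.42 ± 0.16, with an edgeR adjusted p = 0.591 for Rfabg and each of these 5 genes. By adjusted p in the authors' deposited table, 3 of these genes were under 0.05. They were Cyp4g1 (log2 fold change -2.39, adjusted p = 2.88e-05), Rfabg (-1.81, 0.0252) and Yp3 (-1.96, 0.0474). The authors' values were used for the members only. The share of all genes under 0.05 by the authors' test was therefore not counted, and these calls have no background to be set against. CG3523, Lsd-1 and Lsd-2 had log2 fold changes of -0.20 ± 0.23, 0.62 ± 0.35 and -0.26 ± 0.12.

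Other genes of lipid transport, synthesis and use were taken from 5 lists, also chosen with earlier results of these data known. Over all genes tested, 22.4% rose and 23.2% fell in T0 and 23.1% rose and 24.1% fell in T3, with median log2 fold changes of 0.011 and -0.00030. In the fatty acid synthesis list, 8 of 12 genes rose and 0 fell in T0, and 7 rose and 1 fell in T3, with median log2 fold changes of 0.77 and 0.68. Genes that control lipid synthesis rose: SCAP, which escorts the transcription factor SREBP, averaged 230 ± 50.8 CPM in T0 and 92.6 ± 15.8 CPM in primary (SD, n = 3 each; log2 fold change 1.31 ± 0.18), and HLH106, which encodes SREBP, rose by 1.02 ± 0.18. In T3 SCAP rose by 1.14 ± 0.18 and HLH106 by 0.75 ± 0.18. The second fatty acid synthase gene, v(2)k05816, averaged 9.09 ± 0.927 CPM in T0 and 1.43 ± 0.502 CPM in primary, where 2 of 3 libraries reached the filter's CPM, and AcCoAS, which makes acetyl-CoA from acetate, rose in T3 by 0.93 ± 0.14. ACC and ATPCL, which supply fatty acid synthase with its substrates, were not called, at 0.10 ± 0.21 and -0.21 ± 0.14 in T0. The member of the list that fell in T3 was Acsl, an acyl-CoA synthetase gene, named after its value was seen (-0.52 ± 0.15).

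In the lipolysis and lipid droplet list, 7 of 9 genes tested were called higher and 0 lower in T0, and 6 higher and 1 lower in T3, with median log2 fold changes of 0.79 and 0.71. Of the 7, CG5966 reached the filter's CPM in 0 of 3 primary libraries and Jabba in 1 of 3, so they entered the test through the transplanted libraries. Over all genes 22.4% were called higher in T0 and 23.1% in T3, and 23.2% and 24.1% lower. Hsl, the hormone-sensitive lipase gene that acts beside bmm, averaged 78.7 ± 9.14 CPM in T0 and 33.1 ± 1.74 CPM in primary (SD, n = 3 each), a log2 fold change of 1.25 ± 0.13 (edgeR adjusted p = 1.94e-05). In T3 its log2 fold change was 1.39 ± 0.13. The droplet protein gene Jabba rose by 3.52 ± 0.61 in T0 and 2.82 ± 0.61 in T3, Seipin, a gene of droplet formation, by 1.07 ± 0.23 in T0, and Cct1, which makes droplet phospholipid, by 0.71 ± 0.12 in T3. The member that fell in T3 was the lipase gene Lip4 (-1.35 ± 0.51), named after its value was seen.

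**Figure D5:**
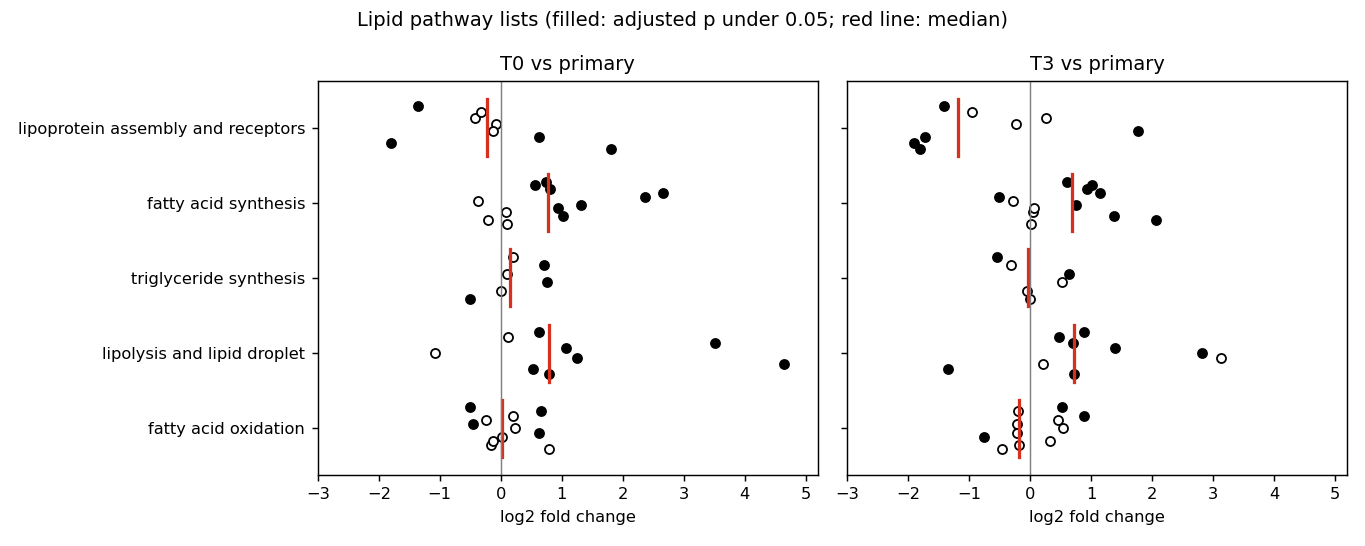
Log2 fold change (x axis) of each tested gene of 5 lipid lists (y axis) in T0 against primary and T3 against primary. Points are genes, filled where the adjusted p was under 0.05, and red lines are list medians, which lie at 0.77 and 0.79 for fatty acid synthesis and lipolysis in T0 and at 0.68 and 0.71 in T3.

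In the lipoprotein assembly and receptor list, 2 of 8 genes rose and 2 fell in T0, near the shares of all genes (22.4% and 23.2%), and 1 rose and 4 fell in T3 (23.1% and 24.1% of all genes), with median log2 fold changes of -0.22 and -1.19. Of the receptor genes, mgl, of the megalin family, fell and averaged 9.05 ± 1.11 CPM in T0 and 23.3 ± 5.37 CPM in primary (SD, n = 3 each; log2 fold change -1.36 ± 0.23), and the lipophorin receptor gene LpR1 also fell, with a log2 fold change of -1.79 ± 0.37. In T3 these were -1.73 ± 0.23 and -1.42 ± 0.36. The lipocalin gene GLaz rose by 1.81 ± 0.42 in T0 and 1.76 ± 0.42 in T3. LpR2, the other lipophorin receptor gene, was not called in T0 (-0.08 ± 0.38) or T3 (-0.96 ± 0.39). The lipid transfer protein genes differed, also named after their values were seen: Mtp, which loads lipid onto lipophorin, rose in T0 (0.62 ± 0.19), and Apoltp fell in T3 (-1.81 ± 0.50).

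In the triglyceride synthesis list 2 of 6 genes tested rose and 1 fell in T0, and 1 rose and 1 fell in T3, with median log2 fold changes of 0.15 and -0.034. The acyltransferase gene mino rose by 0.71 ± 0.14 in T0 and 0.63 ± 0.14 in T3, and mdy, which encodes the last enzyme of triglyceride synthesis, rose in T0 (0.76 ± 0.26). The phosphatase gene Lpin fell, with log2 fold changes of -0.51 ± 0.16 in T0 and -0.54 ± 0.16 in T3. In the fatty acid oxidation list 2 of 11 genes tested rose and 2 fell in T0, and 2 rose and 1 fell in T3, with medians of 0.027 and -0.19. For both lists, the shares of all genes that rose and fell were 22.4% and 23.2% in T0, and 23.1% and 24.1% in T3. The mitochondrial carnitine transferase gene whd rose (0.63 ± 0.14 in T0, 0.52 ± 0.14 in T3), as did Etf-QO, of electron transfer from fatty acid oxidation (0.66 ± 0.19 and 0.88 ± 0.19). Mtpalpha, a trifunctional protein subunit of the oxidation cycle, fell (-0.50 ± 0.12 in T0, -0.76 ± 0.12 in T3). In T3 against T0, edgeR called 0 genes of these 5 lists, as of all genes.

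Patterns most like those of Yp1, yl and Rfabg were sought over the 6 transplanted libraries, among the 6940 genes whose mean there reached 5 CPM. The 10 members were left out of the ranking. Yp2 correlated with Yp1 at 0.9998, above every ranked gene. With yl, Yp2 and Yp1 correlated at 0.9640 and 0.9620, above the ranked gene CG4716 (0.9618). These likenesses are descriptions over libraries that share the step between T0 and T3 and the high replicate 2. Of the ranked genes, the antisense gene CR45601 was most like Yp1 (Pearson r = 0.999, and 0.987 without the 2 libraries farthest from the median). It overlaps Yp1 and may share reads with it. Next came Nplp2 (0.985), CR44431 (0.981), Madm (0.979) and Tps1 (0.979), the trehalose synthase gene. For yl the 5 likest ranked genes were CG5210 (0.996), Madm (0.979), Fbxl4 (0.970), CG4716 (0.962) and Nplp2 (0.957). Without the 2 libraries farthest from the median of Yp1, r was 0.964 for Nplp2, 0.777 for CR44431, 0.952 for Madm and 0.996 for Tps1. For Rfabg they were CG5414 (0.983), ZnT41F (0.979), CG7627 (0.957), Atg10 (0.955) and pgant6 (0.952), and none of the 5 likest genes of Rfabg was among those of Yp1 or yl. Without the 2 farthest libraries r was 0.839 to 0.977 for the likest genes of yl, lowest for Fbxl4, and 0.833 to 0.978 for those of Rfabg, lowest for Atg10. The levels of Nplp2 averaged 0.969 CPM in primary, 11.8 CPM in T0 and 5.02 CPM in T3, while Madm averaged 84.1, 83.6 and 76.0 CPM in these groups.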

How the data were processed

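Per the labels' protocols, total RNA was selected for polyadenylated RNA, amplified in 13 PCR cycles and read from 1 end for 75 nt. HTSeq, edgeR, bedtools 2.25.0, HISAT2 2.1.0 and the build dm6 are named in the submitters' processing notes, while the annotation and strand setting are not given there. Deposited by the authors were 3 tables with the same raw read counts for 9 libraries, and for each comparison a log2 fold change and unadjusted and adjusted p-values as the authors computed them, which were used for the 10 members only. Another 9 columns of normalised values per table were not used.

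Counts were fitted in R 4.3.3 with edgeR 4.0.16: filterByExpr (minimum count 10), TMM factors, 1 mean per group over all 9 libraries and the quasi-likelihood test, two-sided, with Benjamini-Hochberg adjustment over 9082 genes and a threshold of 0.05. SE is the size of the log2 fold change divided by the square root of F. CPM use TMM-scaled totals of the tested genes, and lengths and positions are exon unions and genes of Ensembl release 115 in dm6 coordinates. Intervals and floors cover counting error only, since reads amplified by PCR and carrying no molecular identifier can repeat 1 molecule. Libraries held 7932772 to 14093032 counts. The fit was tested on simulated data.

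The members and the 14 lists (5 of pathways, 9 of markers) were chosen with earlier results of these data known. Of their 130 entries, 21 were matched through synonyms. Members were all named. Of each pathway list, up to 3 called genes with the smallest adjusted p per comparison with primary were named. Further genes, where named, were chosen after their values were seen or to describe a marker list or an overlap. Alternatives were RLE and upper quartile factors, no filter, a CPM filter, DESeq2 1.42.0, limma-voom (limma 3.58.1), a fit on 6 libraries, the replicate number as a block, CPM on plain library totals, and leaving out each library.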

Additional observations from a re-analysis of the deposited data

How the results depend on the processing

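Members called in T3 against primary numbered 6, against 3 in limma-voom and 3 to 6 when 1 library was left out. Of all 9082 genes tested, 4284 were called in the main fit and 4294 in limma-voom. When 1 library was left out, 3492 to 4681 genes were called, of 9282 to 9459 tested. Genes called in T3 against T0 numbered 0, against 96 with no filter on low counts, 13 in DESeq2 and 0 to 5 when 1 library was left out, and members called numbered 6, 2 and 0 to 1 under these. The log2 fold change reversed in T3 against primary without T3 replicate 2 for yl (-0.95, with a range of -0.95 to 2.94 over the omissions) and Lsd-1 (0.032, range -0.31 to 0.032), neither called before or after, and the cause was not tested. Over its alternatives, the adjusted p of Cyp4g1 in T3 against T0 ran from 3.05e-09 (no filter) to 0.678, and that of Rfabg from 5.31e-05 to 0.951. With the replicate number as a block, 5 genes and 2 members, Rfabg and Cyp4g1, were called in T3 against T0, and Rfabg was called in T3 against primary (adjusted p = 0.0385). Deviations of same-numbered libraries correlated at 0.010 to 0.150 between primary and T3, at -0.057 to -0.046 between primary and T0 and at 0.200 to 0.256 between T0 and T3 across genes, so the numbers were not taken to pair the libraries. Of the 509 alternative values of the members' log2 fold changes, 471 kept direction and call, 22 lost the call, 14 gained it and 2 reversed. yl was not tested in T3 against primary in the fit on 6 libraries. Depth limits yl most, with 12 counts in primary and 38 in T3 over 3 libraries.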
